A study of Homo sapiens with 3 samples.

Results

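Glycolytic enzymes were followed across 3 growth states of the human melanoma line 1205Lu, a line from a lung metastasis that WM793 cells formed as a xenograft in mouse. The 10 genes are HK1, HK2, GPI, PFKP, ALDOA, TPI1, GAPDH, PGK1, ENO1 and LDHA, chosen by gene symbol among the 30982 gene names on the array, and 18 of the array's 41000 probes carry 1 of these names. The original monolayer (OM) had 14 days in RPMI-1640 with 10% FCS. The melanoma bodies (MB), attached 3D aggregates, had 14 days in hESC medium, that is DMEM F-12 with 20% Knock Out serum replacement. The new monolayer (NM) was grown out from such bodies with 10 further days in RPMI-1640 with 10% FCS, and remaining 3D bodies were taken away before RNA was prepared. Total RNA of each population was hybridised to 1 Agilent 1-colour array, and all 3 arrays lay on 1 slide. With 1 array per population no test is possible and no p-value is given. The only repeated measurement was that of probes printed in 10 spots, whose spread is technical and leaves out differences between cultures. Medium and growth form changed together, so they cannot be told apart, and in bulk RNA fewer expressing cells and less RNA per cell cannot be told apart either.

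Signals are in arbitrary units (a.u.), scaled so that each array has the 75th percentile of the OM array, which left OM values as deposited, multiplied MB by 0.897 and NM by 1.08. A gene is given by its brightest probe. For a probe printed in 1 spot the technical SD of the log2 ratio was 0.045 for MB over OM, 0.040 for NM over MB and 0.045 for NM over OM, so that 95% of repeat spots should lie within 1.06-fold. Each array held 26516 to 29125 probes well above background. Of the melanoma markers, SOX10, S100B and VIM were well above background on all 3 arrays, as were MITF, SILV and DCT, while TYR and TYRP1 were on none and MLANA was on OM and MB. PTPRC of leukocytes, CDH5 of endothelium, TACSTD1 and CDH1 of epithelium and COL1A1, COL1A2, COL3A1 and LUM of fibroblasts were on none.

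Glycolysis turns glucose into pyruvate in the cytosol, and lactate dehydrogenase reduces the pyruvate to lactate. Hexokinases trap glucose as glucose 6-phosphate, phosphofructokinase commits the sugar to the pathway, and the enzymes from GAPDH onward return ATP and NADH. Melanoma cells, like many tumour cells, run this pathway strongly also when oxygen is present. Many of its genes are known targets of HIF transcription factors, which bind the core letters ACGTG or GCGTG, and of E-box factors such as MYC, which bind CACGTG.

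All 10 enzymes have at least 1 promoter window in RefSeq (GRCh38.p14). The 250 bases before the first annotated start are shown for the enzymes with the widest differences between the arrays (PGK1 and PFKP). They are also shown for the enzyme most above OM in the bodies (HK2), and for the brightest pair of enzymes (LDHA and GAPDH). Capitals mark ACGTG or GCGTG or CACGTG on either strand (reverse complements CACGT and CACGC), and CACGTG holds ACGTG within it.
PGK1 (chrX:78103998-78104247, + strand): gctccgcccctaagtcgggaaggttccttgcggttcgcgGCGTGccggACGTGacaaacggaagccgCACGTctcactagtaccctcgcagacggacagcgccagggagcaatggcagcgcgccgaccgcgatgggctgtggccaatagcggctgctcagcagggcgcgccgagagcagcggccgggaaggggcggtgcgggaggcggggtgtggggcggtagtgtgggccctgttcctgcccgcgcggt
PFKP (chr10:3067720-3067969, + strand): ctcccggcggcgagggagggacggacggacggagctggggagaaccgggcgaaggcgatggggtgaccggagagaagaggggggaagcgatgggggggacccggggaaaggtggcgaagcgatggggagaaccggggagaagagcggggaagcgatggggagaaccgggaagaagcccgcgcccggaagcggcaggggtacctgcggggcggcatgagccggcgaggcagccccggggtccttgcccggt
HK2 (chr2:74833877-74834126, + strand): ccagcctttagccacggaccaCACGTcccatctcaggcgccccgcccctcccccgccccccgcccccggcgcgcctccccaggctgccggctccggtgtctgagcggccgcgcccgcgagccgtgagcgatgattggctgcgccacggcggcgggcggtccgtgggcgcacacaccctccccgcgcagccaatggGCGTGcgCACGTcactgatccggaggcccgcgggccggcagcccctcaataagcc
LDHA (chr11:18394313-18394562, + strand): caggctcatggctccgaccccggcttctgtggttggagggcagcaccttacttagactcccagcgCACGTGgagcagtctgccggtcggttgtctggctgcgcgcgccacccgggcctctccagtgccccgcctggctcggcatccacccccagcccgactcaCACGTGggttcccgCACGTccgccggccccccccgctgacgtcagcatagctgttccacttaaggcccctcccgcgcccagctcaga
GAPDH (chr12:6535014-6535263, + strand): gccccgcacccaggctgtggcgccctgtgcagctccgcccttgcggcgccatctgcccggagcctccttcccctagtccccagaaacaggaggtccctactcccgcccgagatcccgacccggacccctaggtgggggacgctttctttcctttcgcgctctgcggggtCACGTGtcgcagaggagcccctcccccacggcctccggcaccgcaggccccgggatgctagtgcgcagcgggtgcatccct
The windows of PGK1, HK2 and LDHA each hold 3 separate marked stretches, GAPDH holds 1 and this window of PFKP holds 0. PFKP has 4 annotated windows, of which the one at chr10:3068939-3069188 holds 1 stretch and the one at chr10:3104359-3104608 holds 3. Counting every window, ACGTG or GCGTG was found in 15 of the 24 windows of the enzymes (62.5%) and in 43.2% of all 35116 windows of the same length. ACGTG alone was in 11 of the 24 and 18.5% of all, and CACGTG in 4 of the 24 and 6.34% of all. The median GC content was 67.8% for the enzymes' windows and 58% for all windows. A match describes the letters and not a bound site. Whether the letters relate to the values on the arrays, given next, was not tested.

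The hexokinases were the 2 enzymes that read higher in the bodies than in either monolayer. HK1, the widely expressed first enzyme of the pathway, read 21172 a.u. in OM, 22336 in MB and 20712 in NM (chromosome 10, 70831164 to 70831223, hg17). Its log2 ratio was 0.08 for MB over OM and -0.03 for NM over OM, both within the technical tolerance, and -0.11 for NM over MB. A further HK1 probe, designed on another transcript (NM_033497), stayed at background on all 3 arrays. HK2, the inducible hexokinase of muscle and tumours, read 4578 a.u. in OM, 5770 in MB and 5602 in NM, so MB was 1.26-fold and NM 1.22-fold above OM (technical SE 0.045 on the log2 scale), while MB and NM lay within the tolerance. The dimmer HK2 probe read 74.6, 139 and 76.3 a.u. and differed more, with log2 ratios of 0.89 for MB over OM and -0.86 for NM over MB. Both HK2 probes were thus higher in MB than OM, but they disagree on whether NM stayed near MB or near OM.

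The next steps had their lowest signal in the bodies and their highest in the new monolayer. GPI, which turns glucose 6-phosphate into fructose 6-phosphate, read 72470 a.u. in OM, 63728 in MB and 89798 in NM. PFKP, the platelet-type phosphofructokinase, read 44520 a.u. in OM, 24162 in MB and 54819 in NM (chromosome 10, 3168781 to 3168840). MB was 1.84-fold below OM and NM 2.27-fold above MB, the widest range of the 10, and NM was 1.23-fold above OM. ALDOA, the aldolase that splits fructose 1,6-bisphosphate, read 70908 a.u. in OM, 55268 in MB and 83429 in NM, with log2 ratios of -0.36, 0.59 and 0.23 for MB over OM, NM over MB and NM over OM. Its other probe (NM_184041) moved the same way and further, at -0.74, 1.18 and 0.44. TPI1, which interconverts the triose phosphates, read 90843 a.u. in OM, 73434 in MB and 101544 in NM.

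GAPDH, which oxidises glyceraldehyde 3-phosphate and is often used as a loading control, was printed in 10 spots and measured 240897 ± 8337 a.u. in OM (SD, 10 spots each), 201369 ± 5075 in MB and 239746 ± 9053 in NM. Its MB spots, at 193626 to 209833 a.u., did not overlap the OM or the NM spots, whereas OM and NM spots did overlap and their means had a ratio of 0.995. MB was 1.20-fold lower than OM. PGK1, the first enzyme of the pathway to make ATP, measured 96377 ± 3097 a.u. (10 spots) in OM, 71058 ± 2380 (10 spots) in MB and 138873 ± 3538 in NM, from 9 spots because 1 outlier was dropped. No PGK1 spots overlapped between any pair of arrays, and NM was 1.95-fold above MB and 1.44-fold above OM. Such separation was common: of the probes printed in 10 spots and well above background on both arrays, 74.1% did not overlap between MB and OM, 81.9% between NM and MB and 74.5% between NM and OM. Of the other PGK1 probes, the brighter had log2 ratios of -0.36, 0.80 and 0.44, and the dimmer -0.16, 0.29 and 0.13, in the order MB over OM, NM over MB and NM over OM.

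**Figure D1:**
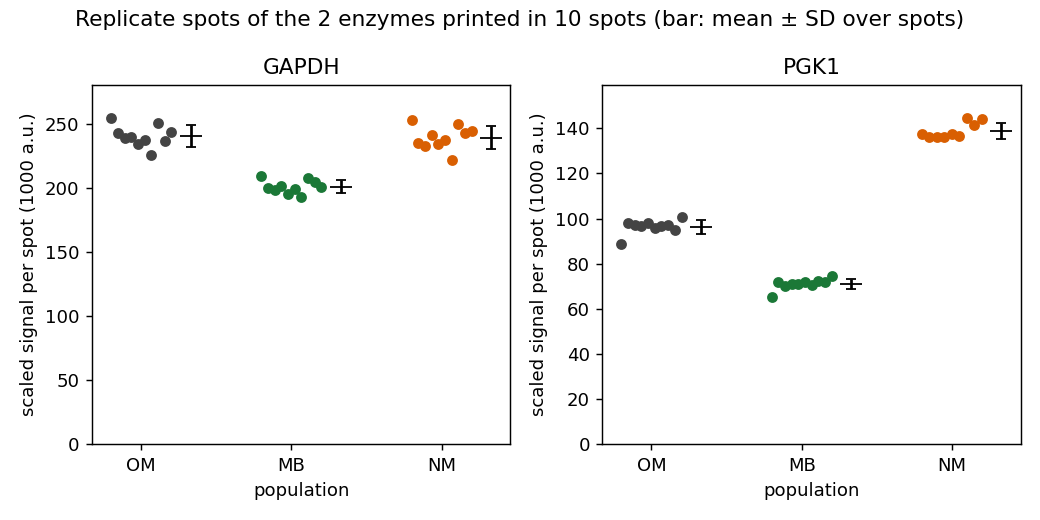
Scaled signal of each replicate spot (1000 a.u., axis from 0) for GAPDH and PGK1 on the OM, MB and NM arrays, with the mean and SD over spots as a bar beside each group. GAPDH spots are lower on MB only, while PGK1 spots form 3 separate levels, lowest on MB and highest on NM.

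ENO1, the enolase of most tissues, read 141250 a.u. in OM, 119137 in MB and 147989 in NM, and OM and NM lay within the technical tolerance. Its other probe had nearly the same log2 ratios, -0.23, 0.28 and 0.05 against -0.25, 0.31 and 0.07. LDHA, the lactate dehydrogenase subunit of glycolytic tissues, read 217354 a.u. in OM, 182432 in MB and 214349 in NM, with MB 1.19-fold below OM and OM and NM within the tolerance. All 3 LDHA probes were lower in MB than OM, by log2 ratios of -0.24 to -0.25, but they spanned -0.15 to 0.14 for NM over OM. LDHA was the only enzyme whose measured probes differed in direction, and this was for NM over OM; the other 4 enzymes with several measured probes had 1 direction in each comparison. GAPDH, PGK1, ENO1, LDHA, TPI1 and ALDOA have many processed pseudogenes, and cross-hybridisation with their transcripts was not tested.

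**Figure D2:**
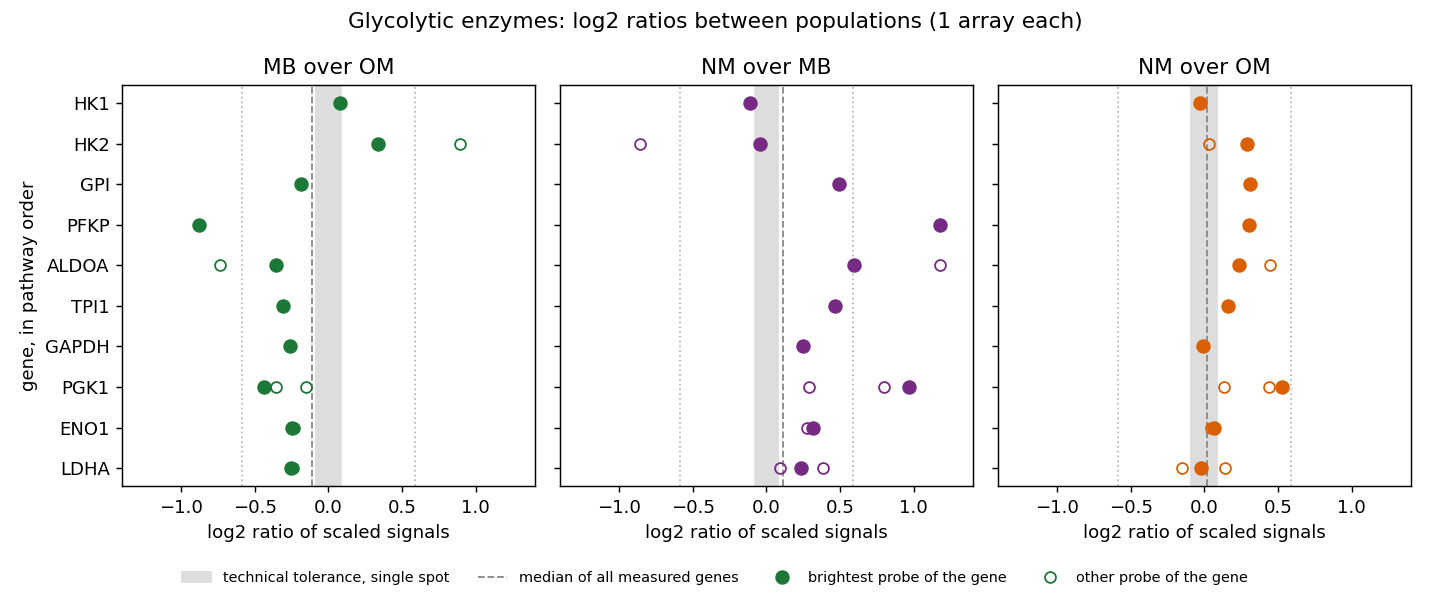
Log2 ratio of scaled signals of each enzyme in the 3 comparisons (x axes), filled for the brightest probe and open for other measured probes, in pathway order. The grey band is the technical tolerance of a single spot, the dashed line the median of all measured genes and the dotted lines 1.5-fold. From GPI to LDHA every filled point lies left of 0 for MB over OM and right of 0 for NM over MB, and the hexokinases do not follow.

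MB was compared with OM to see how the pathway differs between bodies and the starting monolayer. Of the 10 enzymes, 8 were lower in MB, as were 58.9% of all measured genes, and 2, HK1 and HK2, were higher, with a median log2 ratio of -0.26 and a range from -0.88 to 0.33. The 8 lower values and that of HK2 exceeded the technical tolerance. The share of all genes past it was not counted, but the quartiles of their log2 ratios, -0.44 and 0.23, both lay beyond it. Passing the tolerance was thus common on these arrays. At 1.5-fold, 1 enzyme (PFKP) was lower, where 16.9% of the 20692 measured genes were, and 0 were higher, where 10.4% of genes were. Under this scaling all genes had a median log2 ratio of -0.11, and the 4786 genes with a probe at least as bright as that of HK2 had -0.19. The median of the enzymes thus differed from that of all genes by -0.14. Of the genes as bright as HK2, 16.0% were 1.5-fold or more lower and 4.97% higher.

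NM was compared with MB, the step back to monolayer growth. The same 8 enzymes were higher in NM, as were 56.6% of all measured genes, all 8 beyond the technical tolerance, with a median log2 ratio of 0.39 (range -0.11 to 1.18). The quartiles of all measured genes, -0.40 and 0.57, lay beyond that tolerance too. At 1.5-fold, 3 enzymes were higher, PFKP (2.27-fold), PGK1 (1.95-fold) and ALDOA (1.51-fold), where 24.5% of 19330 genes were, and 0 were lower, where 18.6% were. Of the genes as bright as HK2, 30.5% were higher and 9.53% lower, so 3 of 10 enzymes is near the share of such genes. ALDOA passed 1.5-fold under 12 of the 17 alternatives and PGK1 under 15, with lowest log2 ratios of 0.088 for ALDOA (quantile normalization) and 0.29 for PGK1 (its dimmest probe), whereas PFKP passed under all 17. All genes had a median of 0.12 and the genes as bright as HK2 0.26. These comparisons share the MB array, so a low MB signal enters both.

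NM was compared with OM, 2 monolayers in the same medium of which 1 had passed through bodies. Here 7 enzymes were higher in NM, as were 51.2% of all measured genes, and 3 lower, with a median log2 ratio of 0.20 against 0.01 for all genes and 0.10 for genes as bright as HK2. The values of 6 enzymes, HK2, GPI, PFKP, ALDOA, TPI1 and PGK1, exceeded the tolerance, all higher in NM, and HK1, GAPDH, ENO1 and LDHA lay within it. The quartiles of all measured genes, -0.31 and 0.31, lay beyond the tolerance as well. At 1.5-fold 0 enzymes were called, where 10.9% of 19392 genes were higher and 12.8% lower. Of the genes as bright as HK2, 9.43% were higher and 5.39% lower. PGK1 came nearest, at 1.44-fold.

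Across the 3 arrays, GPI, PFKP, ALDOA, TPI1, PGK1 and ENO1 had the order NM, OM, MB from high to low, an order also held by 32.1% of the 19241 genes measured on all 3. GAPDH and LDHA had OM, NM, MB, with OM and NM within the tolerance. HK2 had MB, NM, OM and HK1 had MB, OM, NM. The median range of an enzyme over the 3 arrays was 1.32-fold, against 1.53-fold for all these genes, and 3 enzymes exceeded 1.5-fold where 52.1% of genes did.

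These differences are small enough for the scaling to matter. Quantile normalization turned the median for MB over OM to 0.065 and that for NM over MB to -0.094, with 7 of 10 enzymes then higher in MB than OM. GPI, TPI1, GAPDH, ENO1 and LDHA changed sign under it in both comparisons. Other scalings also turned some signs. GPI for MB over OM, and GAPDH and LDHA for NM over MB, kept theirs under 6 of 8 scalings. Without scaling 6 enzymes were higher and 4 lower in NM than MB. PFKP, ALDOA and PGK1 were lower in MB than OM and higher in NM than MB, and HK2 was higher in MB than OM, under all 17 alternatives. HK1 turned to -0.040 for MB over OM with spike-in scaling. HK2, GPI, PFKP, ALDOA and PGK1 were higher in NM than OM under all 17. Scaling to GAPDH, ACTB and HSP90AA1, which puts an enzyme of the pathway into its own reference, gave medians of -0.066, 0.28 and 0.27 for MB over OM, NM over MB and NM over OM. Without scaling, all genes shifted from -0.11 to 0.05 for MB over OM and from 0.12 to -0.15 for NM over MB, and the enzymes moved with them.

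**Figure D3:**
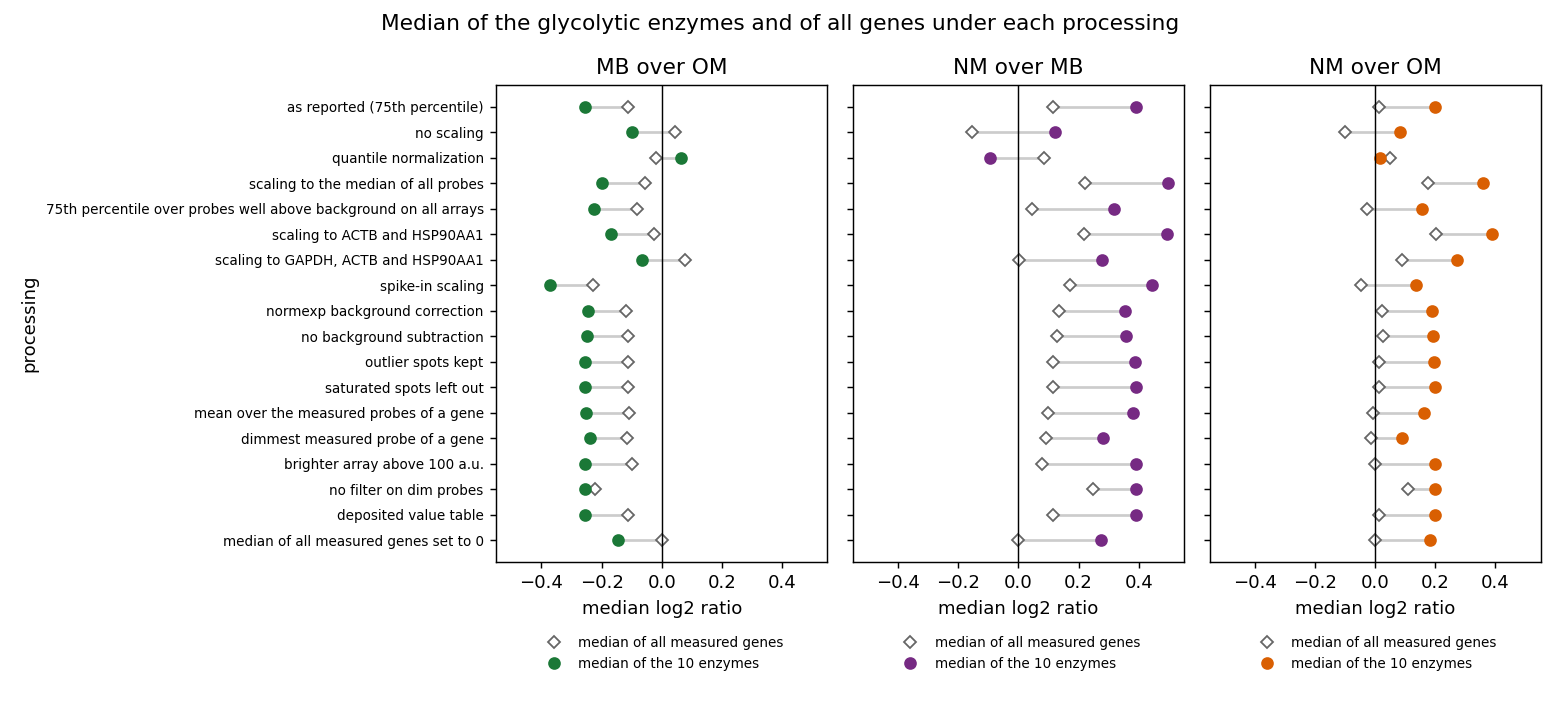
Median log2 ratio of the 10 enzymes (filled circles) and of all measured genes (open diamonds) under the reported processing and each alternative, for the 3 comparisons. The distance between the symbols stays near 0.14, 0.27 and 0.18 under every scaling by 1 factor per array, since such a factor moves both symbols alike. The symbols change places under quantile normalization. With no filter on dim probes the enzymes' median minus that of all genes is -0.033, 0.14 and 0.089.

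The other genes of the pathway were taken from a list of 22 symbols, of which 20 were on the array and 13 were measured. For MB over OM 3 were 1.5-fold or more lower and 0 higher, for NM over MB 3 were higher and 0 lower, and for NM over OM 2 were higher and 0 lower. Their medians were -0.26, 0.42 and 0.09. Of all measured genes, 10.4% were 1.5-fold or more higher and 16.9% lower for MB over OM. The shares were 24.5% and 18.6% for NM over MB, and 10.9% and 12.8% for NM over OM. The same shares of all genes apply to the counts of the lists that follow. ENO2, the neuronal enolase, differed more than any of the 10 enzymes, at 2342 a.u. in OM, 1234 in MB and 5944 in NM, which puts MB 1.90-fold below OM, and NM 4.82-fold above MB and 2.54-fold above OM. Its common counterpart ENO1 was within the tolerance between the monolayers. Among the phosphofructokinase subunits, PFKL (liver type) read 4560, 4428 and 6578 a.u. and PFKM (muscle type) 11431, 11804 and 14137 a.u. on OM, MB and NM, so neither had the low MB signal of PFKP, and no test of that difference can be made. Of the lactate dehydrogenases, LDHB read 291769, 231369 and 310136 a.u., lowest in MB. For NM over OM its log2 ratio was only 0.09, and -0.25 with quantile normalization. LDHC stayed between 50.5 and 65.3 a.u.

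PKM2, the array's name for the pyruvate kinase gene of tumours and most tissues, which makes the last ATP of glycolysis, read 29824, 31437 and 30214 a.u. and lay within the tolerance in every comparison. PGAM1, the mutase between PGK1 and enolase, read 20345 a.u. in OM, 17033 in MB and 23649 in NM, as the enzymes around it do. BPGM, which makes 2,3-bisphosphoglycerate, had log2 ratios of 0.31, 0.10 and 0.41, and ENO3, the muscle enolase, 0.39, -0.52 and -0.13. ADPGK, which phosphorylates glucose with ADP, had -0.28, 0.34 and 0.06. GAPDHS (214, 96.5 and 191 a.u.) and ALDOC (46.0, 65.8 and 134 a.u.), tissue-restricted forms, were dim, and of these ALDOC was highest in NM and lowest in OM, by a log2 ratio of 1.54 that was 0.81 with normexp background correction. Among the genes named from this list, PFKL, PFKM, BPGM, ADPGK, ENO3, PKM2, LDHB, LDHC and GAPDHS had a sign that some scaling turned, in at least 1 comparison.

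Of the genes that set the supply of fructose 2,6-bisphosphate, the activator of phosphofructokinase, PFKFB3 and PFKFB4 ran opposite to PFKP. Of 5 listed genes on the array 4 were measured, and 2 passed 1.5-fold in all 3 comparisons, higher in MB over OM and lower in NM over MB and NM over OM. PFKFB3, whose product makes the activator, read 10238 a.u. in OM, 17574 in MB and 4102 in NM, which put NM 4.28-fold below MB. Its 4 probes were all higher in MB than OM (log2 ratios of 0.03 to 0.81) and lower in NM than MB (-2.10 to -0.79) and OM (-1.32 to -0.76). The 0.03, that of its dimmest probe, lay within the technical tolerance of a single spot. PFKFB4, a relative that is often induced by hypoxia, read 1223, 4230 and 779 a.u., so that MB was 3.46-fold above OM and NM 5.43-fold below MB. Both genes had these directions under all 17 alternatives. PFKFB3 passed 1.5-fold for MB over OM under 15 of them, and PFKFB4 passed it for NM over OM under 12.

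At the exit of the pathway, PDK1, a kinase that switches off pyruvate dehydrogenase, read 3028 a.u. in OM, 1897 in MB and 5817 in NM, the same order as PGK1, and was 3.07-fold higher in NM than MB. PDK4, a kinase of the same family induced in fasting, was highest in MB, at 87.0, 199 and 96.8 a.u. in OM, MB and NM, although with normexp background correction its log2 ratio for NM over MB was -0.58 against -1.04. PPM2C, the array's name for a phosphatase that switches the complex back on, was 3.52-fold below OM in MB and 2.76-fold above MB in NM, and PDP2, the other such phosphatase, was 3.08-fold lower in NM than MB at signals under 155 a.u., where normexp background correction gave a log2 ratio of -0.83 against -1.62. At 1.5-fold the counts of the 11 measured genes higher and lower were 2 and 2 for MB over OM, 4 and 2 for NM over MB, and 1 and 1 for NM over OM. The list's medians were -0.06, 0.11 and 0.14.

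For entry of glucose and exit of lactate, 15 of 19 genes on the array were measured, with 2 higher and 2 lower in MB than OM, 2 higher and 0 lower in NM than MB, and 3 higher and 1 lower in NM than OM, and medians of 0.09, 0.09 and 0.17. SLC2A1 (GLUT1), named here outside the rule for named genes because it is the main glucose carrier of tumour cells, read 9043, 7489 and 8671 a.u., and SLC16A3 (MCT4), the lactate exporter, named on the same ground, read 97594, 88389 and 87263 a.u. The other SLC16A3 probe differed far more, with log2 ratios of -0.91, -0.85 and -1.76 for MB over OM, NM over MB and NM over OM. SLC2A14 and SLC2A3, near-identical glucose carriers whose probes may share transcripts, were 2.52-fold and 1.91-fold higher in NM than OM, although the dimmer SLC2A3 probe had a log2 ratio of only 0.11. SLC16A4 read 314, 122 and 561 a.u., and SLC2A11 255, 139 and 114 a.u.

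Among 17 genes that regulate glycolysis genes or report on their regulators, all measured, the counts higher and lower at 1.5-fold were 4 and 3 for MB over OM, 6 and 4 for NM over MB, and 6 and 1 for NM over OM, with medians of 0.01, 0.19 and 0.24. TXNIP, an inhibitor of glucose uptake that is known to respond to glucose through the MondoA factor, read 6950 a.u. in OM, 2914 in MB and 82049 in NM, where it stood 28.2-fold above MB and 11.8-fold above OM. ARRDC4, its relative with the same known control, read 116, 105 and 724 a.u. EPAS1, which encodes HIF-2 alpha, read 8242, 4608 and 18317 a.u. and had the order of PGK1, but its probes spanned log2 ratios of -0.84 to -0.16 for MB over OM and 1.15 to 1.99 for NM over MB. PPARGC1A, a coactivator of mitochondrial genes, was dim at 31.0, 144 and 65.3 a.u., and its log2 ratio for MB over OM was 1.01 with normexp background correction against 2.21. For NM over MB, several named genes had log2 ratios larger in size than the 1.18 of PFKP. They include TXNIP, ARRDC4, EPAS1, PFKFB3, PFKFB4, ENO2, PDK1 and SLC16A4. PFKP itself stood above 91.5% of all measured genes.

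**Figure D4:**
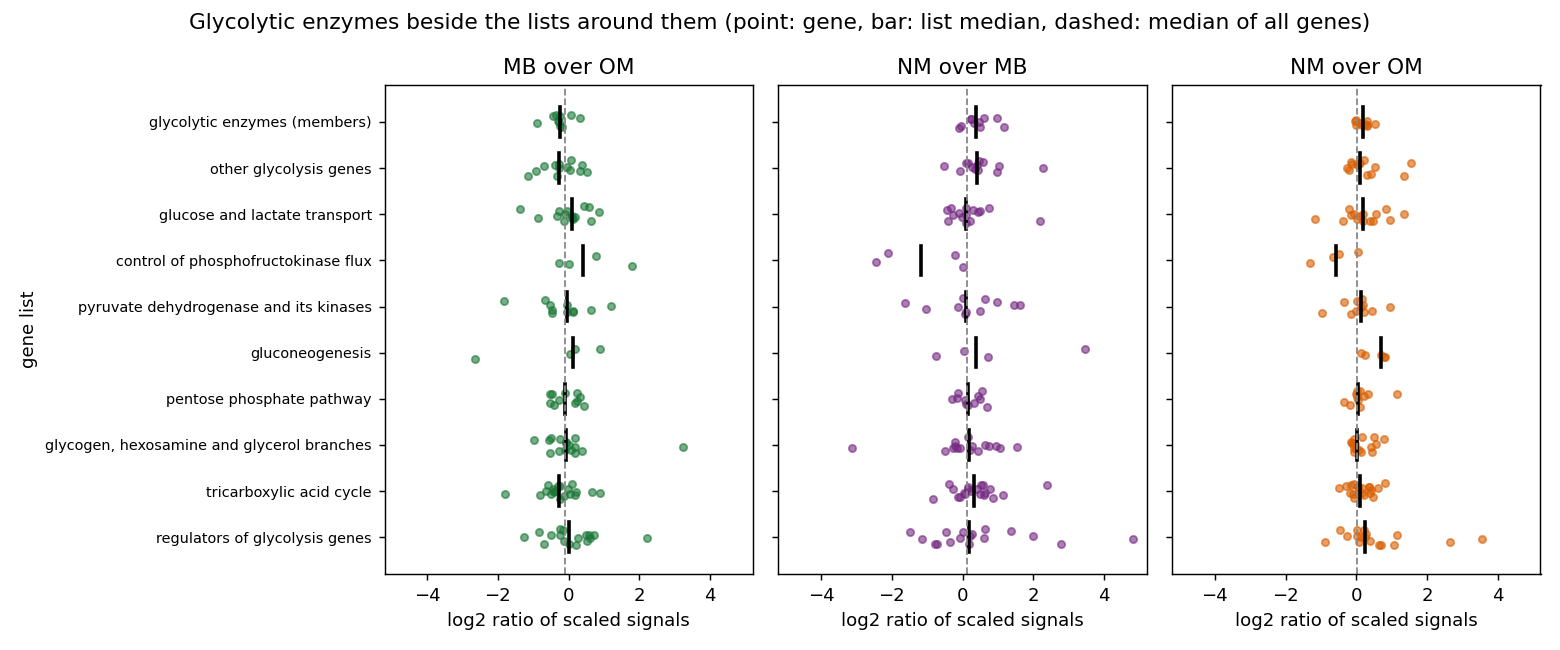
Log2 ratio of scaled signals (x axes) of every measured gene of the 10 enzymes and of the lists around them, with list medians as black bars and the median of all measured genes dashed. The enzymes lie between -0.88 and 1.18 in every comparison, while single genes of the lists reach 4.82.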

How the data were processed

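RNA of OM, MB and NM cells was measured on 1 array each (Agilent 1-colour, Cy3, 4 × 44K). Spot intensities were deposited by the authors as Feature Extraction (9.5.3.1) wrote them, background-subtracted and detrended within the array, with surrogates for low values and no scaling between arrays. The deposited value table holds the same intensity values (130128 of 130128 within 0.1%). Control and outlier spots were left out here, spots of a probe averaged and arrays scaled to the 75th percentile. A gene was its brightest probe and counted as measured when well above background on both arrays. The technical SD came from 10-spot probes, paired by position. Precision is limited by 1 array per population, so no test was run, and a threshold of 1.5-fold is a description. Named genes were the 10 enzymes, the measured other glycolysis genes (1 is not reported here), and up to 4 genes per further list (glucose and lactate transport, phosphofructokinase control, pyruvate dehydrogenase, gluconeogenesis, pentose phosphate pathway, glycogen, hexosamine and glycerol branches, tricarboxylic acid cycle, regulators) with the largest differences. The enzymes and lists were chosen with earlier results of these data known. Probe positions are in hg17 as deposited, promoter sequences from RefSeq (GRCh38.p14). The steps were tested on simulated data. Normexp used limma 3.58.1 in R 4.3.3, other steps Python 3.11.15, numpy 2.4.6, pandas 2.3.3 and matplotlib 3.10.9. The slide was common to all arrays. Protein sequences were not used here.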

Additional observations from a re-analysis of the deposited data

How the results depend on the processing

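Of the 510 values of single enzymes under the alternatives, 343 stayed within the technical tolerance of the reported value and 167 moved beyond it. The medians of the enzymes for MB over OM, -0.26 as reported, were -0.10 without scaling, 0.065 with quantile normalization, -0.066 when scaled to GAPDH, ACTB and HSP90AA1, -0.37 with spike-in scaling (7 probes) and -0.14 with the median of all genes set to 0, an alternative chosen after seeing the data. For NM over MB, 0.39 as reported, they were 0.12 without scaling, -0.094 with quantile normalization, 0.50 scaled to the median of all probes, 0.49 to ACTB and HSP90AA1, 0.28 to GAPDH, ACTB and HSP90AA1, 0.28 with the dimmest measured probe and 0.27 with all genes at 0. For NM over OM, 0.20 as reported, they were 0.084, 0.018, 0.36, 0.39 and 0.088 without scaling, with quantile normalization, scaled to the median of all probes, to ACTB and HSP90AA1 and with the dimmest probe. The count of enzymes past 1.5-fold in either direction for MB over OM, 1 as reported (lower), was 2 with the mean over probes (1 higher and 1 lower). With the dimmest probe that count was 3 (1 higher and 2 lower). For NM over MB, 3 as reported, it was 1 with quantile normalization, 2 without scaling, with the 75th percentile over probes well above background on all arrays, scaled to GAPDH, ACTB and HSP90AA1 or with all genes at 0, and 4 when scaled to the median of all probes or to ACTB and HSP90AA1, and for NM over OM, 0 as reported, 1 when scaled to the median of all probes, to ACTB and HSP90AA1 or to GAPDH, ACTB and HSP90AA1. With a brighter signal 25% or more above the dimmer the counts were 4, 5 and 1, at 2-fold 0, 1 and 0 and at 5-fold 0 in all 3 comparisons. OGDH changed sign with its dimmest probe, to -0.91 for MB over OM and 0.89 for NM over MB. The cause of these moves was not tested. No paired analysis was possible because each of OM, MB and NM is 1 array with no numbered partner. For the same reason no array could be left out in turn.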

Other observations

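PCK2, the mitochondrial enzyme that makes phosphoenolpyruvate from oxaloacetate, read 57448 a.u. in OM, 9145 in MB and 100107 in NM, which put MB 6.28-fold below OM and NM 10.9-fold above MB, and its 2 probes had nearly the same log2 ratios (-2.65 and -2.67 for MB over OM). PCK1, the cytosolic form, was dim, at 61.2 a.u. in OM and 98.8 in NM, and MB was at background. Its OM signal was 3.52-fold above 17.4 a.u., the lowest signal well above background on the MB array. That floor is not the detection limit of the PCK1 probe itself. PC, which makes oxaloacetate from pyruvate, stood 1.84-fold above OM in MB, and SLC37A4, the glucose 6-phosphate carrier, was 1.71-fold higher in NM than OM. Of 9 gluconeogenesis genes 4 were measured in MB over OM and in NM over MB (1 higher and 1 lower at 1.5-fold, then 2 and 1) and 5 in NM over OM (3 higher and 0 lower), with medians of 0.12, 0.38 and 0.69. Beside these and the counts below, 10.4% of all measured genes were higher and 16.9% lower for MB over OM. The shares were 24.5% and 18.6% for NM over MB, and 10.9% and 12.8% for NM over OM. PGM2L1, a glucose 1,6-bisphosphate synthase, read 303, 2847 and 330 a.u., with MB 9.41-fold above OM, and its 2 probes had log2 ratios of 2.87 and 3.23. GFPT1 and GFPT2, the entry enzymes of hexosamine synthesis, read 5647, 3843 and 8024 a.u. and 19803, 10072 and 29258 a.u., both lowest in MB, as was GBE1, the glycogen branching enzyme, at 10383, 7369 and 14099 a.u. Of the 16 measured genes of these branches 1 was higher and 1 lower in MB than OM, 5 higher and 1 lower in NM than MB, and 1 higher and 0 lower in NM than OM, with medians of -0.08, 0.18 and 0.02.

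The tricarboxylic acid cycle, with all 20 listed genes measured, had medians of -0.26, 0.32 and 0.10 in MB over OM, NM over MB and NM over OM, beside -0.26, 0.39 and 0.20 for the glycolytic enzymes. At 1.5-fold the counts of its genes higher and lower were 2 and 3 for MB over OM, 6 and 1 for NM over MB, and 2 and 0 for NM over OM. DLST, a subunit of the 2-oxoglutarate dehydrogenase complex, read 3296, 944 and 4980 a.u., IDH2 5947, 3423 and 7573 a.u. and SUCLG2 1540, 988 and 1785 a.u., each lowest in MB. OGDH, another subunit of the complex of DLST, was 1.85-fold above OM in MB on its brightest probe, but its 3 probes spanned log2 ratios of -0.91 to 1.08. The pentose phosphate pathway, with 11 of 12 genes measured, had 0 genes past 1.5-fold in MB over OM, and 1, TKTL1, higher in NM over MB and in NM over OM, with 0 lower and medians of -0.11, 0.16 and 0.04. TKTL1 was dim, at 60.4, 82.5 and 134 a.u. in OM, MB and NM. Its log2 ratio for NM over OM was 0.67 with normexp background correction against 1.15. For NM over MB it passed 1.5-fold under 14 of the 17 alternatives.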
